A study of Mus musculus with 6 samples.

Results

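The contractile apparatus of smooth muscle was followed through 10 genes: Acta2, Actg2, Myh11, Tagln, Cnn1, Des, Mylk, Lmod1, Smtn and Synpo2. They were chosen by gene symbol among the 55076 rows of each mouse's expression table, and all 10 were found. Their levels were compared between OEx mice (Pbsn-Cre Rosa26 N1ICD/+, n = 3) and Ctrl mice (Rosa26 N1ICD/+ without Cre, labelled wild type, n = 3). All were males of 20 weeks of age, and both groups carried the Cre-dependent allele of the Notch1 intracellular domain (N1ICD) at Rosa26. Cre was driven by the probasin (Pbsn) promoter, which is active in prostate epithelium, so smooth muscle was not the cell in which the allele was meant to be switched on. Each library was made from total RNA of the anterior prostate of a mouse. The paper states for its RNA isolation that secretions were cleaned away, and does not repeat this for sequencing. Levels are FPKM, that is fragments per kilobase of exon after a scaling between libraries, which is described below.

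Smooth muscle cells lie in a sheath around the prostatic ducts and expel the secretion when they shorten. Contraction starts when calcium and calmodulin activate myosin light chain kinase, which phosphorylates the regulatory light chain of myosin. Myosin then pulls on thin filaments of smooth muscle actin that are anchored to dense bodies and to the cell membrane. Transcription of many of these genes depends on serum response factor (SRF) and its coactivators of the myocardin family, which act at a DNA element called the CArG box.

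All 10 contractile genes were lower in each OEx mouse than in any Ctrl mouse. The summed level of the 10 was 526, 524 and 444 FPKM in OEx mice, against 1321, 1298 and 2764 FPKM in Ctrl mice. The Ctrl mean was thus 3.60 times the OEx mean. Calls required a limma FDR under 0.05 and a fold change over 2, and 8 of the 10 passed as lower and 0 as higher. The exceptions were Mylk, which passed the FDR but not the fold criterion, and Synpo2, which passed neither. Among all 12833 genes tested, 15.7% were called lower and 12.9% were called higher. With the FDR alone, 9 of the 10 passed as lower and 0 as higher, against 36.5% and 30.7% of all genes. The OEx mice lay below the Ctrl mice without overlap for 38.9% of all genes. The median log2 fold change was -1.40 over the 10 genes and -0.08 over all genes. These levels are relative to the other RNA of a whole gland. Fewer smooth muscle cells, less RNA per cell and more RNA from other cells cannot be told apart in them. The paper reports that the anterior prostate of OEx mice of this age was enlarged, with more proliferating epithelial cells. The part of this enlargement in the lower levels was not tested.

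**Figure D1:**
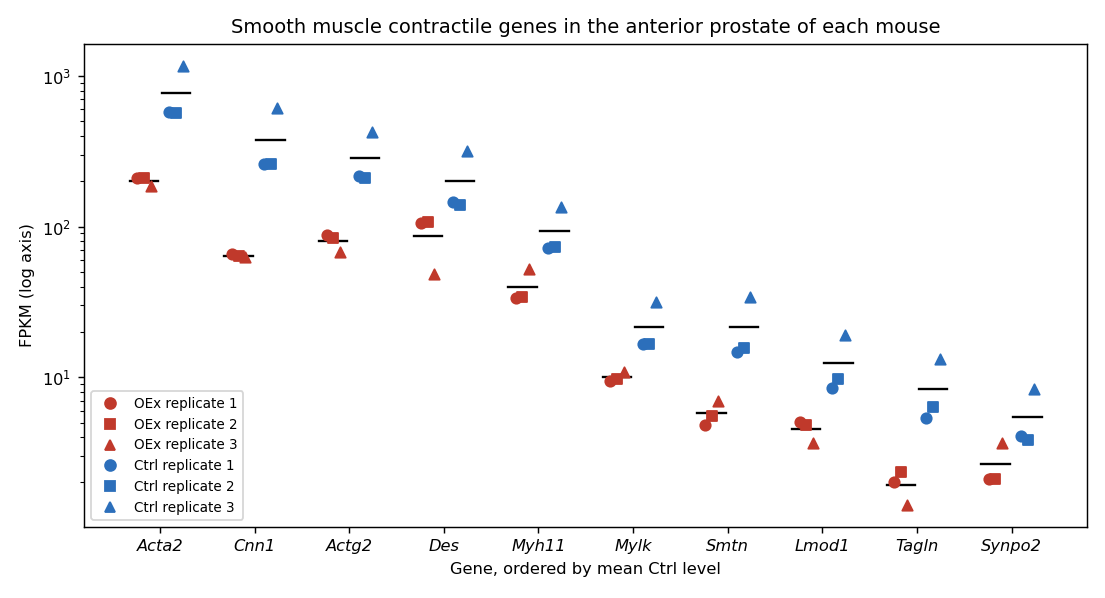
FPKM of the 10 contractile genes in each mouse on a log axis, with OEx mice in red and Ctrl mice in blue and a black bar at each group mean (n = 3). Every red point lies below every blue point of the same gene, from Acta2 at 186 to 1166 FPKM down to Synpo2 at 2.11 to 8.32 FPKM, and Ctrl replicate 3 is the highest mouse for all 10 genes.

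Features of the libraries bear on these values. The FPKM values rest on 14772005 to 17009325 reads per OEx mouse and 17236735 to 18655462 reads per Ctrl mouse. Replicates 1 and 2 of a group were far closer to each other (chi-square per degree of freedom of 3.67 in OEx and 2.93 in Ctrl) than either was to replicate 3 (50.4 to 86.7). They differed by more than counting noise, but libraries made from the same mouse can do so too, so these values do not show that replicates 1 and 2 are separate mice. They were counted as 3 mice per group, as labelled, and the results with the close pairs averaged are given beside them. Nothing in the labels says more about how the mice were sampled, so the p-values measure the spread between these 6 libraries. Ctrl replicate 3 carried 16128 FPKM on 8 genes of the seminal vesicle, which lies against the anterior prostate, and these genes summed to 0.578 to 4.36 FPKM in the other 5 mice. Limma called 0 of the 4 tested, with 0 at an unadjusted p under 0.05 and 0 by limma-voom. A test between groups can hardly call genes that are high in 1 mouse only. These counts therefore do not show that the tissue was absent. The part of this tissue in the results was not tested. With 3 mice per group, the smallest two-sided p of an exact permutation test on 1 gene is 0.1.

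In Ctrl mice the actins and Cnn1 had the highest mean levels per length of the 10. Acta2, which encodes the alpha actin of vascular and visceral smooth muscle, lies on chromosome 19 from 34241090 to 34255590 on the minus strand (GRCm38, as all positions here). It was measured at 211, 209 and 186 FPKM in OEx mice and 579, 566 and 1166 FPKM in Ctrl mice. The OEx mice stayed close together, whereas Ctrl replicate 3 stood at 2.04 times the mean of the other Ctrl mice, and the lowest Ctrl mouse was 2.68 times the highest OEx mouse. Acta2 fell by 1.84 on the log2 scale (standard error 0.282, limma FDR 0.0013). Actg2, the gamma actin of enteric and other visceral smooth muscle, lies on chromosome 6 from 83512905 to 83536265 on the minus strand. Its level was 87.8, 83.9 and 68.2 FPKM in OEx mice and 215, 209 and 426 FPKM in Ctrl mice, again with no overlap and with the highest value in Ctrl replicate 3. Actg2 fell by 1.74 on the log2 scale (standard error 0.285, limma FDR 0.00175). The actins share long stretches of coding sequence, but only 7 of 1986 windows of 50 bases of the Acta2 transcript, and none of 1284 of Actg2, occur in a transcript of another gene.

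Stretches upstream of the transcription start were read for 7 of the 10 genes from RefSeq (GRCm38.p6), namely Acta2, Cnn1, Des, Lmod1, Mylk, Smtn and Synpo2. Actg2, Myh11 and Tagln had no entry. The 250 bases before each start were searched on both strands for the CArG box, and for TGGGAA, the core letters bound by RBPJ, the DNA-binding partner of N1ICD. A full CArG box was found in 0 of the 7 and in 1.47% of all 32851 promoters. A CArG box with 1 base other than A or T in its core was found in 1 of the 7, that of Acta2, and in 8.59% of all. TGGGAA was found in 2 of the 7, those of Acta2 and Smtn, and in 21.6% of all. The 3 stretches that hold these matches are shown 5′ to 3′ on the strand of the gene, with the matched bases in capitals.
Acta2, chr19:34255438-34255467, minus strand: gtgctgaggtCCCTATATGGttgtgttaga
Acta2, chr19:34255387-34255416, minus strand: gtctttgctCCTTGTTTGGGAAgcgagtgg
Smtn, chr11:3539343-3539372, minus strand: aaaaattgaattTTCCCAatgggaccagag

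The matches to the CArG box in Acta2 lie at -84 to -75 and at -34 to -25 from the RefSeq start, and TGGGAA at -27 to -22 overlaps the latter. In Smtn the RBPJ core lies at -68 to -63 and reads on the opposite strand. GENCODE starts the Acta2 transcript farther upstream than RefSeq does, so both Acta2 stretches fall in the first untranslated exon of Acta2-201, and the Smtn stretch falls in an intron of Smtn-209. A match describes the letters only, and no binding was measured.

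The motor and its kinase came next. Myh11 encodes the heavy chain of smooth muscle myosin and lies on chromosome 16 from 14194535 to 14291372 on the minus strand. It was measured at 33.4, 34.3 and 52.0 FPKM in OEx mice and 72.0, 73.1 and 135 FPKM in Ctrl mice. Here replicate 3 was the highest mouse of both groups, and the groups did not overlap. Myh11 fell by 1.17 on the log2 scale (standard error 0.289, limma FDR 0.0104), but without Ctrl replicate 3 its log2 fold change was -0.88 and missed the fold criterion. Mylk, which encodes myosin light chain kinase, lies on chromosome 16 from 34745210 to 35002420 on the plus strand. Its level was 9.40, 9.75 and 10.9 FPKM in OEx mice and 16.5, 16.5 and 31.7 FPKM in Ctrl mice. The OEx mice were the more uniform group, and the lowest Ctrl mouse was 1.52 times the highest OEx mouse. The log2 fold change of Mylk was -0.97 (standard error 0.248, limma FDR 0.0122), just short of the fold criterion. It passed that criterion when Ctrl replicate 1, Ctrl replicate 2 or OEx replicate 3 was left out, with values of -1.12, -1.12 and -1.03.

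The genes of actin-binding proteins held the largest of the 10 changes. Cnn1 encodes calponin, which binds actin and slows the myosin motor, and lies on chromosome 9 from 22099216 to 22109630 on the plus strand. It was measured at 65.3, 64.1 and 63.1 FPKM in OEx mice and 260, 259 and 613 FPKM in Ctrl mice. The OEx mice were nearly equal, and the lowest Ctrl mouse was 3.97 times the highest of them. Cnn1 fell by 2.41 on the log2 scale (standard error 0.330, limma FDR 0.00079). It fell by 2.00 without Ctrl replicate 3 and by 1.64 with library totals, and kept its call in all 19 alternatives. The FDR alone, counted among the 19, could not have removed it.

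Smtn encodes smoothelin, an actin-associated protein of fully contractile smooth muscle, and lies on chromosome 11 from 3517523 to 3540612 on the minus strand. It was measured at 4.80, 5.54 and 6.93 FPKM in OEx mice and 14.8, 15.6 and 34.0 FPKM in Ctrl mice, so that each Ctrl mouse stood well above each OEx mouse. Smtn fell by 1.64 on the log2 scale (standard error 0.316, limma FDR 0.00354). Lmod1 encodes leiomodin, which seeds new actin filaments, and lies on chromosome 1 from 135324807 to 135368065 on the plus strand. Its level was 5.04, 4.82 and 3.68 FPKM in OEx mice and 8.52, 9.70 and 19.2 FPKM in Ctrl mice, with no overlap. The log2 fold change of Lmod1 was -1.22 (standard error 0.287, limma FDR 0.00881), and it was -0.88 without Ctrl replicate 3, short of the fold criterion.

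Tagln encodes transgelin (SM22), an actin-bundling protein of the smooth muscle cell, and lies on chromosome 9 from 45929619 to 45936058 on the minus strand. It was measured at 2.02, 2.33 and 1.42 FPKM in OEx mice and 5.39, 6.29 and 13.2 FPKM in Ctrl mice, and fell by 1.59 on the log2 scale (standard error 0.310, limma FDR 0.00378). The groups did not overlap. Its level is uncertain, because 62.4% of its 1988 exon bases also belong to Gm48529 on the opposite strand and 5.43% to Pcsk7, and the strand setting of the counting is not given in the sources used here. Gm48529 itself was listed at 0.672 to 0.986 FPKM in the 6 mice. Such overlap was smaller for Smtn, at 16.3% of exon bases with Gm11946, and for Des, at 5.86% with Gm15179.

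Des encodes desmin, the muscle intermediate filament that links dense bodies, and lies on chromosome 1 from 75360329 to 75368579 on the plus strand. It was measured at 105, 108 and 48.3 FPKM in OEx mice and 146, 139 and 318 FPKM in Ctrl mice. OEx replicate 3 was at 0.455 times the mean of the other OEx mice, and OEx replicates 1 and 2 came close to Ctrl replicates 1 and 2 without reaching them. Des fell by 1.18 on the log2 scale (standard error 0.425, limma FDR 0.0449). This call was lost when any 1 of the 6 mice was left out, with limma FDR values of 0.0505 to 0.107. Synpo2 encodes synaptopodin 2, an actin-binding protein of dense bodies and Z-discs, and lies on chromosome 3 from 123076519 to 123236149 on the minus strand. Its level was 2.11, 2.12 and 3.66 FPKM in OEx mice and 4.08, 3.84 and 8.32 FPKM in Ctrl mice, and the lowest Ctrl mouse was only 1.05 times the highest OEx mouse. The log2 fold change of Synpo2 was -0.78 (95% confidence interval -1.48 to -0.08, limma FDR 0.0514). These fold changes are on the log2(FPKM + 1) scale and understate the change of low genes, of which Synpo2 and Tagln are the lowest here.

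**Figure D2:**
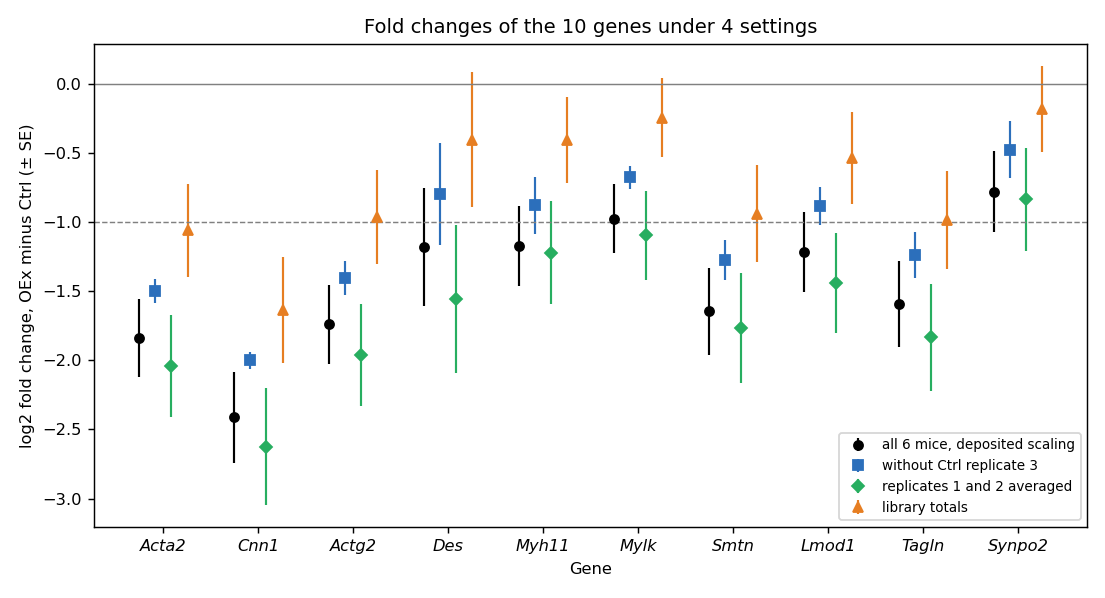
Log2 fold changes (OEx minus Ctrl) of the 10 contractile genes with 1 standard error, for all 6 mice at the deposited scaling, without Ctrl replicate 3, with replicates 1 and 2 averaged, and with library totals. The dashed line marks the fold criterion at -1; all 40 values lie below 0, and those with library totals lie nearest to it.

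The size of these changes depended on Ctrl replicate 3. It stood at 1.86 (Myh11) to 2.36 (Cnn1) times the mean of the other Ctrl mice for the 10 genes, with a median of 2.10, while the median over all tested genes was 0.968 and 13.0% of them reached a ratio of 1.5. Without this mouse, 5 of the 10 genes were called lower, namely Acta2, Actg2, Tagln, Cnn1 and Smtn, against 15.6% of all genes. The median of the 10 was then -1.06. With replicates 1 and 2 of each group only, 6 of the 10 were called lower, against 16.6% of all genes, with a median of -1.09, and here the spread is that of the close pairs. With those pairs averaged into 1 value each, 8 of the 10 were called lower, against 15.6% of all genes, with a median of -1.66. Averaging gives replicate 3 of each group a larger weight, so this setting raises the part of Ctrl replicate 3. In OEx mice the 10 genes did not move together in replicate 3, which was at 0.455 times the other OEx mice for Des and 1.73 times for Synpo2, with a median of 0.930.

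The scaling between mice moved all fold changes. The deposited values carry a scaling that is not the library total. Rescaling to totals multiplied them by 1.23 to 1.36 in OEx mice and 0.732 to 0.822 in Ctrl mice, relative to the geometric mean. Reads of the 20 top genes made up 26.0% to 33.8% of a Ctrl library but 5.90% to 7.71% of an OEx library. Under library totals, the all-gene median of the log2 fold change rose from -0.08 to 0.59, and 31.5% of all genes were then called higher and 4.32% lower. Under that scaling only Acta2 and Cnn1 of the 10 were called lower, with log2 fold changes of -1.06 and -1.64 (limma FDR 0.0287 and 0.00829). All 10 values stayed below 0, with a median of -0.74. Such a scaling multiplies all genes of a mouse alike, so it could hardly change the distance of the 10 from the all-gene median. That distance was -1.32 with the deposited scaling and -1.33 with library totals.

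Fold changes also went with the length of the genes. The 3 longest of the 10, Synpo2, Mylk and Myh11, with 13089, 11263 and 7599 exon bases, had the 3 smallest changes. Myh11 (-1.17) was nearly level with Des (-1.18), which has 3754 exon bases. Without Ctrl replicate 3, Des (-0.79) changed less than Myh11 (-0.88). Over all tested genes, the median log2 fold change was -0.50 up to 2000 exon bases, -0.24 from there to 5000 bases and 0.27 beyond. The 10 genes lay below the median of their length class in each, with medians of -1.66, -1.64 and -0.97. When the length trend of each mouse was removed, an alternative chosen after the data were seen, 9 of the 10 were called lower, against 12.8% of all genes. Mylk and Synpo2 were then called, at -1.5 and -1.38 (limma FDR 0.00294 and 0.00641), and Des was not (-1.12, limma FDR 0.0567).

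The composition of the contractile apparatus was read within each mouse, as log2 of the FPKM of a gene over the geometric mean of the 10, which does not depend on the scaling between mice. In Ctrl mice the shares were steady, with standard deviations of 0.04 (Acta2) to 0.12 (Tagln), so that Ctrl replicate 3 had more of all 10 genes in like proportion. The OEx shares were shifted and more spread, with standard deviations of 0.04 (Cnn1) to 0.62 (Des). Cnn1 had the largest shift, with shares of 1.84, 1.77 and 1.84 in OEx mice and 2.64, 2.61 and 2.79 in Ctrl mice. Its mean share was thus lower by -0.86 in OEx mice, with no overlap. The shares of Tagln (-0.46), Acta2 (-0.28) and Actg2 (-0.19) were also below those of all Ctrl mice, and those of Synpo2 (0.57), Mylk (0.53) and Myh11 (0.37) above. For Actg2 the gap was slight, with 2.266 in OEx replicate 1 and 2.267 in Ctrl replicate 3. Smtn, Lmod1 and Des overlapped. The share of Des was 2.52 and 2.52 in OEx replicates 1 and 2 and 1.46 in OEx replicate 3, on either side of the Ctrl values of 1.72 to 1.85. These shares carry the length of the genes as above and were not tested. Within a mouse they are tied together, so lower shares of some genes raise those of others.

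**Figure D3:**
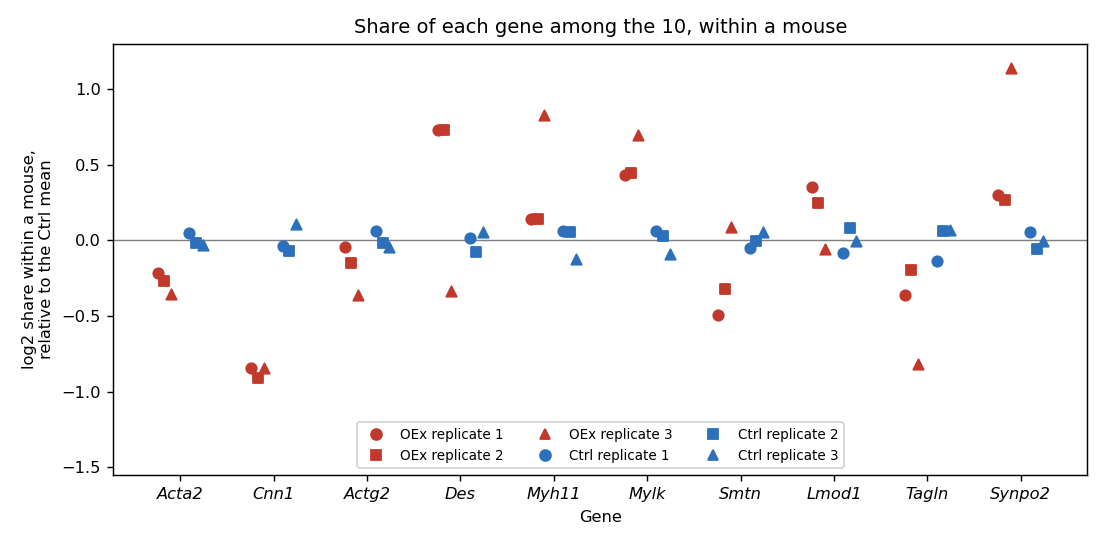
Log2 share of each gene among the 10 within a mouse, relative to the mean share of the 3 Ctrl mice; red points are OEx mice and blue points Ctrl mice. Ctrl mice stay near 0 for all genes, Cnn1 is lower in all OEx mice with a mean shift of -0.86, and OEx replicate 3 departs from the other OEx mice for Des, Myh11 and Synpo2.

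Calls among other genes of the contractile machinery went in both directions, as did those over all genes, with 15.7% lower and 12.9% higher. Of 14 other genes of actin, tropomyosin, caldesmon, calponin and myosin, 4 were called lower and 1 higher, with a median log2 fold change of -0.60. Myl9, the smooth muscle regulatory light chain that Mylk phosphorylates, was measured at 80.8, 77.6 and 73.8 FPKM in OEx mice and 293, 296 and 626 FPKM in Ctrl mice (-2.28 on the log2 scale, limma FDR 0.000598). Tpm2, the beta tropomyosin of muscle thin filaments, was at 37.8, 36.3 and 38.2 FPKM against 174, 171 and 401 FPKM (-2.58, limma FDR 0.000547). The groups did not overlap for either gene, and both stood highest in Ctrl replicate 3, as the contractile genes did. Myl6, the essential light chain (-1.58), and Tpm1 (-1.19) were the others called lower. Tpm4, a tropomyosin of many cell types, was called higher at 1.28, and Cald1, caldesmon, was not called at 0.41 (limma FDR 0.315). Scaled by library totals, the 14 held 2 lower and 3 higher calls, against 4.32% and 31.5% of all genes.

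Of 15 genes that control myosin phosphorylation, 14 were tested, of which 2 were called lower and 2 higher, with a median of -0.55. These counts are near the shares over all genes, 15.7% lower and 12.9% higher. Ppp1r14a (CPI-17), the inhibitor of myosin phosphatase in smooth muscle, was at 4.62, 5.63 and 4.05 FPKM in OEx mice and 10.6, 12.8 and 37.9 FPKM in Ctrl mice (-1.68 on the log2 scale, limma FDR 0.0137). Dapk3, a kinase that acts on myosin light chain and myosin phosphatase, had a log2 fold change of -1.36 (limma FDR 6.52e-05). Rock1 and Rock2, kinases of many cell types that inhibit myosin phosphatase, were called higher at 1.63 and 1.24 (limma FDR 4.56e-05 and 0.000878). Ppp1r12a, the targeting subunit of myosin phosphatase, had a log2 fold change of 0.81 and was not called, although its limma FDR was 0.00505. With library totals, 0 genes of this list were called lower and 4 higher, against 4.32% and 31.5% of all genes.

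Of 14 transcription factors of smooth muscle, 9 passed the filter of a mean of 1 FPKM. Of these 9, 2 were called lower and 2 higher, against 15.7% and 12.9% of all genes. Their median was -0.15. Srf was measured at 12.7, 12.1 and 13.3 FPKM in OEx mice and 33.1, 30.06 and 30.03 FPKM in Ctrl mice. It did not follow the rise of the contractile genes in Ctrl replicate 3, and the groups did not overlap. Srf fell by 1.23 on the log2 scale (standard error 0.0827, limma FDR 5.48e-05), and by 0.48 with library totals, where it was not called. Its coactivators Mkl1 and Mkl2 had log2 fold changes of -0.22 and 0.25 (limma FDR 0.109 and 0.315). Myocd, myocardin itself, was below the filter, at 0.804, 0.796 and 0.336 FPKM in OEx mice and 0.373, 0.433 and 0.553 FPKM in Ctrl mice, with overlapping groups. Tcf21, a stromal regulator that opposes the smooth muscle fate, was called lower at -1.94, and Nr2f2, a nuclear receptor of mesenchyme, was called higher at 1.45. Mef2a, named after its values were seen, was the other one called higher, at 1.03.

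Calcium handling and receptor genes were mostly at low levels. Of 18 genes of calcium handling and ion channels, 7 were tested, of which 1 was called lower and 2 higher. Over all genes, 15.7% were called lower and 12.9% higher. Jph2, which couples the sarcoplasmic reticulum to the cell membrane, was called lower at -1.40, but not with library totals (-0.71, limma FDR 0.12) or with replicates 1 and 2 only (-0.94). Ano1, a calcium-activated chloride channel also found in secretory epithelia, was called higher at 2.30, and so was Kcnma1 at 1.61, a potassium channel named after its values were seen. Kcnmb1, the smooth muscle subunit of that channel, was below the filter at 0.383 to 1.51 FPKM. Of 17 receptors and relaxation genes, 8 were tested, of which 2 were called lower and 2 higher. Adra1a, the adrenergic receptor for prostatic contraction, and Chrm3, a muscarinic receptor, were below the filter at 0.149 to 0.558 and 0.102 to 0.442 FPKM, respectively. Ptger3, a prostaglandin receptor, was called lower at -2.71 and Agtr1a, an angiotensin receptor, higher at 1.35. P2rx1, the ATP-gated channel of genitourinary smooth muscle, was called lower at -1.73, and Gucy1b1, a subunit of the nitric oxide receptor, higher at 2.13, both named after their values were seen. P2rx1 was at 0.477, 0.433 and 0.528 FPKM in OEx mice and 3.47, 2.79 and 5.94 FPKM in Ctrl mice.

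The genes that anchor actin to dense bodies and to the membrane were the largest of these lists. Of 30, 23 were tested, of which 6 were called lower and 2 higher, against 15.7% and 12.9% of all genes. Their median was -0.37. Csrp1, a LIM protein abundant in smooth muscle, was at 129, 125 and 132 FPKM in OEx mice and 556, 560 and 1108 FPKM in Ctrl mice (-2.44, limma FDR 0.000308). Pdlim3, an actinin-binding LIM protein, and Cavin1, a coat protein of caveolae, were called lower at -1.94 and -1.74. Fhl2 and Lpp, LIM proteins of focal adhesions, were called higher at 2.32 and 1.64. Scaled by library totals, the 23 held 2 lower and 3 higher calls, against 4.32% and 31.5% of all genes.

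**Figure D4:**
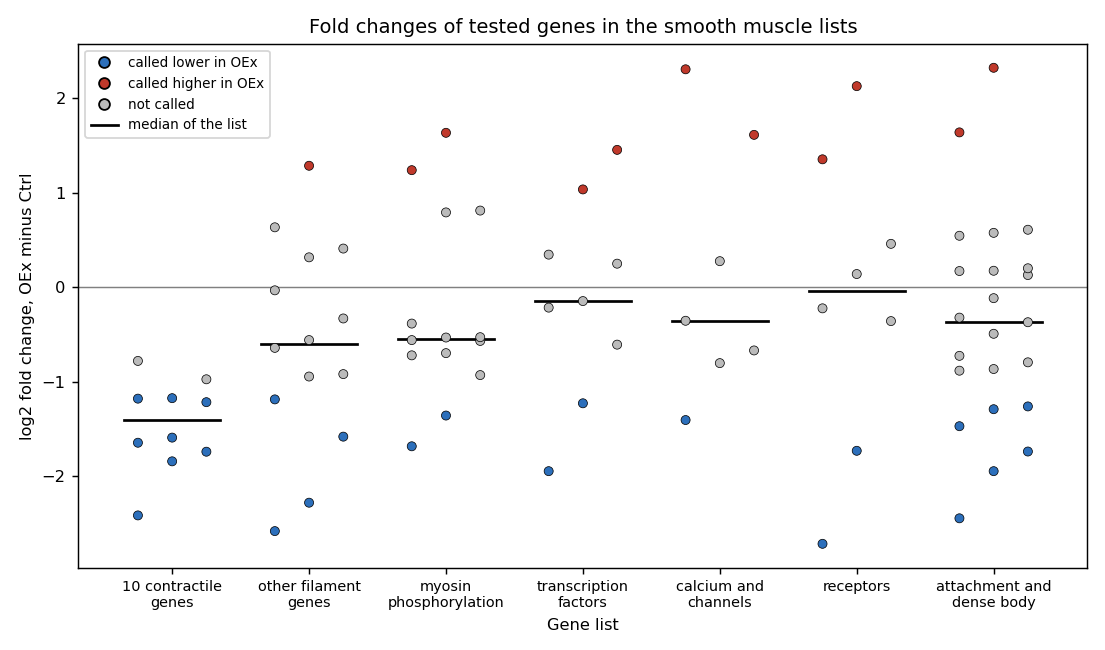
Log2 fold changes (OEx minus Ctrl) of the tested genes of 7 lists, 1 point per gene, in blue or red where called lower or higher and in grey where not called, with a bar at the median of each list. The 10 contractile genes all lie below 0 with a median of -1.40, and the other 6 lists spread over both sides of 0 with medians of -0.60 to -0.04.

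Markers of other cell types were read beside the contractile genes, since the gland also holds fibroblasts, vessels and epithelium. Of 10 fibroblast genes, limma called 0, with 0 at an unadjusted p under 0.05 and 0 called by limma-voom. They summed to 301 and 305 FPKM in OEx replicates 1 and 2, to 32.9 FPKM in OEx replicate 3 and to 93.5, 92.3 and 185 FPKM in Ctrl mice. The 10 contractile genes did not drop likewise in OEx replicate 3, whose sum was 0.846 times that of the other OEx mice, against 0.109 times for the fibroblast genes. Within replicates 1 and 2, 5 fibroblast genes were called higher in OEx mice, against 14.5% of all genes, while the contractile genes were lower, and the spread is again that of the close pairs. In Ctrl replicate 3 the fibroblast sum was 1.99 times and the contractile sum 2.11 times that of the other Ctrl mice.

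Over all genes tested, 15.7% were called lower and 12.9% higher, to be read beside the counts of calls that follow. Endothelial markers summed to 12.6, 12.7 and 10.4 FPKM in OEx mice and 25.5, 26.9 and 37.6 FPKM in Ctrl mice. Of these 8 markers, 1 was called lower. At the FDR alone, 5 of 8 were lower, against 36.5% of all genes. Limma-voom called 5 of the 8 lower, against 19.2% of all genes. Pericyte markers summed to 35.6, 36.2 and 38.3 FPKM against 13.5, 13.1 and 23.7 FPKM. Of their 6 tested genes 1 was called higher, Notch3, named after its values were seen, at 3.30, while 3 lay below 0 and the median was -0.03. Without Notch3 the sums overlapped, at 19.4, 18.4 and 10.01 FPKM in OEx mice and 12.3, 12.1 and 22.4 FPKM in Ctrl mice. Basal epithelial markers, the cells next to the smooth muscle sheath, summed to 11.7, 12.3 and 20.1 FPKM in OEx mice and 227, 219 and 259 FPKM in Ctrl mice, with 5 of 6 called lower. Luminal epithelial markers summed to 2052 to 2500 FPKM and 2522 to 2908 FPKM, with 2 of 8 called lower and Ctrl replicate 3 the lowest Ctrl mouse. Scaled by library totals, that list held 0 lower and 3 higher calls, against 4.32% and 31.5% of all genes. The median of the list went from -0.14 to 0.64. Immune markers summed to 33.9, 34.2 and 8.25 FPKM in OEx mice and 8.56, 8.40 and 15.9 FPKM in Ctrl mice, and limma called 0 of 3 tested genes, with 0 at an unadjusted p under 0.05 and 0 by limma-voom. All 3 were called higher with replicates 1 and 2 only, and 2 of 3 with library totals, against 14.5% and 31.5% of all genes. Nerve and glia markers summed to 4.91 to 6.25 FPKM against 9.07 to 13.0 FPKM, with 1 of 3 tested genes called lower. Adipocyte markers summed to at most 2.64 FPKM except in Ctrl replicate 3, at 14.5 FPKM, with 1 of 2 tested genes called lower and Lep at 0 in all mice. The part of these cells in the levels of the contractile genes was not tested.

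Of 10 striated muscle markers, 3 were tested and 2 called lower, against 15.7% of all genes. Myh1 and Myh4, fast myosins of skeletal muscle, were at 0 in all mice. The giant sarcomere gene Ttn was at no more than 0.00427 FPKM. Acta1, the actin of skeletal muscle, was nevertheless at 24.3, 25.7 and 31.2 FPKM in OEx mice and 185, 184 and 426 FPKM in Ctrl mice, a gene named after its values were seen. It had a log2 fold change of -3.13 (limma FDR 0.00026), with all OEx mice below all Ctrl mice and the highest level in Ctrl replicate 3, as for Acta2.

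**Figure D5:**
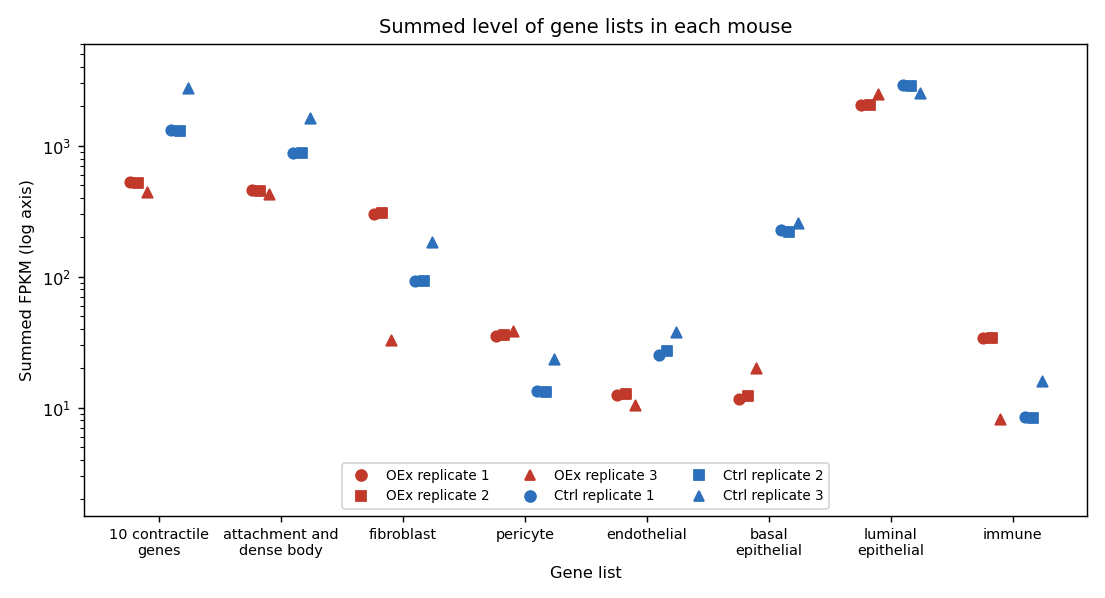
Summed FPKM of 8 gene lists in each mouse on a log axis, with OEx mice in red and Ctrl mice in blue. The 10 contractile genes are lower in all OEx mice, at 444 to 526 against 1298 to 2764 FPKM, whereas fibroblast markers are highest in OEx replicates 1 and 2 and lowest in OEx replicate 3.

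The 5 genes outside these lists with a mean of at least 10 FPKM whose profile over the 6 mice was most like the mean profile of the 10 were Chchd1, mt-Rnr2, Dmpk, Ccdc124 and Gas1. Their root mean square differences from it were 0.0854 to 0.119 on the log2 scale. Those of the 10 genes themselves were 0.14 (Tagln) to 0.484 (Cnn1). The 5 were picked for the smallest differences among many genes, so these ranges cannot be compared. Dmpk, a kinase of muscle, was at 9.33, 9.97 and 10.4 FPKM in OEx mice and 25.8, 26.4 and 52.9 FPKM in Ctrl mice. Chchd1, a protein of the mitochondrial ribosome, was at 28.2, 28.0 and 25.7 FPKM against 66.0, 67.9 and 118 FPKM. Both followed the contractile genes in being low in all OEx mice and highest in Ctrl replicate 3. So did Cox6c, Rps14 and Rplp1, further down the ranking and named after their values were seen. This profile was thus not particular to muscle genes.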

How the data were processed

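The authors deposited 1 table of FPKM values by gene symbol for each of the 6 mice. Their processing notes name CASAVA, HISAT2 2.0.5, StringTie 1.3.3b and featureCounts 1.5.0-p3, and the genome build is not given in the sources used here. Rows were matched by symbol to GENCODE M21 (GRCm38), which placed 53710 rows. With its exon lengths, 96.9% to 97.5% of the values under 1000 reads were whole numbers of reads within 0.05, and these reads served for depth and for the alternatives with library totals and limma-voom. At a length of 1 kb, 3 reads correspond to 0.131 to 0.240 FPKM, which covers counting error only.

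The groups were compared on log2(FPKM + 1) in limma 3.58.1 (R 4.3.3), with eBayes following the intensity trend. Rows averaging under 1 FPKM were dropped, which left 12833. A call required FDR (Benjamini-Hochberg) below 0.05 together with a log2 change of more than 1 in size, as in the methods of the paper. The fit was checked on simulated data. Alternatives changed the scaling, filter, pseudocount, intensity trend, test, mice, exon length and replicate block.

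The 10 genes and all lists were chosen with earlier results of these data known. Genes named from the wider lists were those called with a mean of at least 5 FPKM, up to 5 per list by the size of the change, and 12 regulators and partners (Srf, Myocd, Mkl1, Mkl2, Myl9, Tpm2, Cald1, Ppp1r12a, Rock1, Kcnmb1, Adra1a and Chrm3). Others are marked where named. Python 3.11.15 with pandas 2.3.3, numpy 2.4.6 and matplotlib 3.10.9 made the tables and plots.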

Additional observations from a re-analysis of the deposited data

How the results depend on the processing

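All 10 contractile genes kept a log2 fold change below 0 in each of the alternatives run. The number called lower was 8 with all mice and the deposited scaling. It was 2 with library totals, 5 with totals that left out the 20 top genes and 5 with upper quartile scaling, while the share of all genes called lower went from 15.7% to 4.32%, 9.18% and 10.2%. It was 10 with limma-voom and 9 with a pseudocount of 0.1, against 19.2% of all genes in either setting. Leaving out each mouse in turn gave 5 to 8, with the lowest count without Ctrl replicate 3, and 7 without OEx replicate 1 or 2. Of all genes, 3674 were called, and leaving out each mouse gave 3583 to 3752. The count was 8621 with the FDR alone and 2245 with a mean of at least 5 FPKM, where Synpo2 was not tested. Calls higher in OEx mice made up 45.0% of all calls, 88.0% with library totals, 68.5% without the 20 genes and 64.5% with upper quartile scaling. Same-numbered mice had correlations of deviations of -0.189 to -0.307. Replicates 1 and 2 of a group are so close that these values cannot tell whether the numbers pair the mice. With the replicate block, 3597 genes were called, 7 of the 10 among them, and Des lost its call. No mouse correlated best with its own number, but deviations from the mean of a group of 3 are tied together. The call of Des was lost in 14 of 19 alternatives and that of Lmod1 in 5, whereas Acta2 and Cnn1 kept theirs in all 19. Mylk, not called above, was called in 8. These tallies include the FDR alone on the same fit, which was bound to call Mylk and could not remove any call. The cause of the losses and gains was not tested. With a pseudocount of 0.1, the log2 fold change went from -1.59 to -1.97 for Tagln and from -0.78 to -0.97 for Synpo2, which rested on 51 to 400 and 552 to 1655 reads per mouse.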
